A study of Mus musculus with 17 samples.

Results

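The 32 genes described here encode the machinery with which a cell makes sterols and fatty acids. They are 21 genes of the sterol branch, including the transcription factor Srebf2, and 11 genes of the fatty acid branch, including the transcription factor Srebf1. They were taken by mouse symbol from a list of SREBP factors, of enzymes and carriers of cholesterol synthesis and uptake, and of enzymes of fatty acid synthesis, elongation and desaturation, with no measured value in the rule. All 32 were found among the 53679 gene identifiers of the count files, and 31 were among the 16246 genes with enough reads to be tested. Fads2, a desaturase of polyunsaturated fatty acids, was the member left out, with at most 2 counts in any library.

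RNA was measured by sequencing in CD8+ T cells of C57BL/6 mice that were either CBLB knockout (KO) or CBLB wild type (WT). Cbl-b is an E3 ubiquitin ligase that restrains signalling from the T cell receptor. Cells were sequenced without stimulation or from experiments labelled as 12 h stimulations, with an antibody that triggers the receptor through its CD3 subunits (anti-CD3), or with that antibody together with one to CD28, the main costimulatory receptor. The 17 libraries comprised 3 of unstimulated KO cells, 3 of unstimulated WT cells, 3 of KO cells with anti-CD3, 3 of WT cells with anti-CD3, 3 of KO cells with both antibodies, and 2, numbered replicates 2 and 3, of WT cells with both antibodies. The labels do not give the allele of the knockout or the age of the mice. No label says that replicates came from separate mice or cultures, so p-values measure the spread between these libraries, which may be technical.

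Cholesterol and its relatives are built from acetyl-CoA through mevalonate, isoprenoid diphosphates and squalene, while fatty acids are built from the same acetyl-CoA through malonyl-CoA. Both branches are controlled by the SREBP transcription factors, which are held in the endoplasmic reticulum by the sterol-sensing proteins Scap and Insig and move to the Golgi, where they are cleaved and released, when sterols run low. Srebf2 encodes the form best known for sterol genes, and Srebf1 encodes forms of which the shorter is best known for fatty acid genes. Resting T cells make little new membrane, and T cells that have been activated through their receptor enlarge and then divide, which calls on both branches.

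The promoters of SREBP targets typically carry a sterol regulatory element close to a CCAAT box, the site of nuclear factor Y, which helps SREBP bind. RefSeq windows of 300 bases, running from 250 bases before to 50 bases after a gene's start, were matched for 25 of the 32 members (30 windows, mouse build GRCm38.p6). The element core TCACCCCAC, searched on both strands, was found in 1 member window, that of Hmgcs1, against 0.552% of all 32817 windows. The looser form TCACNCCAC, which takes in the core, added no further member window and was present in 1.24% of all windows. CCAAT, searched on both strands, was in 22 of the 30 member windows (73.3%), against 37.4% of all windows. The upstream 250 bases of 3 members are shown because they carry the motifs in different arrangements ahead of genes whose RNA changed: Hmgcs1 (chr13:119690101-119690350, plus strand) and Sc5d (chr9:42264301-42264550, minus strand) of the sterol branch, and Fasn (chr11:120824548-120824797, minus strand) of the fatty acid branch. Each is written 5′ to 3′ towards the start, with capitals for the motif letters on either strand.
Hmgcs1: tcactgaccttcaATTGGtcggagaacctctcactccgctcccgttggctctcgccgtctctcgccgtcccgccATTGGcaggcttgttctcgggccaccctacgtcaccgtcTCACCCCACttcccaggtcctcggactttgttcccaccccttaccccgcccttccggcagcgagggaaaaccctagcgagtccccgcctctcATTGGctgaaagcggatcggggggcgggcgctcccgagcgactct
Sc5d: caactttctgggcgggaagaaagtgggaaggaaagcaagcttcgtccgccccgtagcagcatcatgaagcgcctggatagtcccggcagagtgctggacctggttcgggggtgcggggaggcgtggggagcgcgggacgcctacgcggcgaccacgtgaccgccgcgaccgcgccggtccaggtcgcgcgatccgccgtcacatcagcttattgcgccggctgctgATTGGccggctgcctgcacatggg
Fasn: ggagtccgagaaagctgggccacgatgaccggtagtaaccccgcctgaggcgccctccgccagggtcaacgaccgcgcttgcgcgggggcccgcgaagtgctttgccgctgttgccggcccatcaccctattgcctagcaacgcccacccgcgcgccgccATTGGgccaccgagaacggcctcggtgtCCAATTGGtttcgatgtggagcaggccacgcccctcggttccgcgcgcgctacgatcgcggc
In Hmgcs1 the core TCACCCCAC lay 137 to 129 bases before the start on the gene's strand, between CCAAT boxes that read ATTGG on that strand and began 237, 176 and 45 bases before the start. Sc5d had 1 box, 24 to 20 bases before the start. Fasn had 3 boxes, of which 2 overlap as CCAATTGG, 62 to 55 bases before the start. Idi1 had boxes 45 to 41 and 14 to 10 bases before its start, and Cyp51 had 1 box 29 to 25 bases before its start.

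Each library held 16635826 to 38269033 gene counts, apart from replicate 2 of unstimulated KO cells with 160059285, and a count of 0 allows up to 0.0198 to 0.194 CPM (gene counts scaled to library size, with TMM factors). Cblb RNA was lower in KO cells in every state, by 1.16 ± 0.083 on the log2 scale without stimulation and by 1.21 ± 0.083 with anti-CD3. With both antibodies the log2 difference was -1.05 ± 0.090 (SE, adjusted p = 2.29e-05, edgeR quasi-likelihood test). The summed level of 5 CD8 T cell markers was 1480 to 1684 CPM with anti-CD3 and 1546 to 1605 CPM with both antibodies, against 2713 to 2949 CPM without stimulation. The 4 B cell markers summed to 6.95 to 9.40 CPM with anti-CD3 and 5.10 to 9.37 CPM with both antibodies, against 17.1 to 26.7 CPM without stimulation. The 5 myeloid markers summed to at most 12.6 CPM and the 3 natural killer markers to at most 4.53 CPM in any library. The 3 CD4 T cell markers summed to 1.42 to 2.62 CPM over the libraries. Within these lists Cd4 was at most 0.292, Cd14 at most 0.113 and Ncr1 at most 0.194 CPM, each at 0 in at least 1 library. Other markers of the same lists were higher: Foxp3 was at 0.890 to 2.16 CPM, Itgax reached 9.57 CPM and Klrb1c 4.02 CPM. All sums but that of the CD4 T cell markers moved with stimulation, and their part in the responses was not tested. In these bulk libraries, fewer cells of a type and less RNA per cell cannot be told apart.

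A second feature of the libraries touches the members directly. Expressed genes of high GC content (at least 56%) were shifted against those of low GC content (at most 40%) by a different amount in each library, from a median log2 shift of 1.14 in replicate 2 of unstimulated KO cells to -1.18 in replicate 3 of KO cells with both antibodies. This shift was 0.44, 1.14 and 0.10 in unstimulated KO libraries, against -0.80, -0.39 and -0.36 in unstimulated WT libraries. It was 0.21, 0.09 and 0.21 in KO libraries with anti-CD3, against -0.15, -0.45 and -0.44 in WT libraries with anti-CD3. With both antibodies it was 0.35, -0.38 and -1.18 in KO libraries, against 0.54 and 0.51 in WT libraries. The share of counts from the small RNAs 7SL and 7SK kept the same order: it was 7.83% to 13.1% in unstimulated KO libraries against 3.98% to 6.05% in WT libraries, 7.33% to 8.12% in KO against 4.63% to 6.49% in WT libraries with anti-CD3, and 2.65% to 9.45% in KO against 9.94% to 11.4% in WT libraries with both antibodies. The mitochondrial share ranged from 2.25% to 5.54%, and the part of these shares in the genotype differences was not tested. The order of the genotypes in the GC shift was thus KO above WT in the first pair of states, while with both antibodies all KO libraries lay below the WT libraries. The members' responses to stimulation and their genotype differences are therefore also given with a per-library correction for GC content. The comparisons of adding anti-CD28 and the genes of neighbouring pathways are given without it. There are 7 members with a GC content over 55%: Mvd, Mvk, Pmvk, Tm7sf2, Srebf2, Srebf1 and Fasn.

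Per kilobase of exon, counted over all annotated exons of a gene, the fatty acid branch held the most abundant members. This length can exceed that of a single transcript, and the order of the genes depends on it. Elovl5, an elongase of polyunsaturated fatty acids, averaged 49.3 ± 4.98 CPM per kb in unstimulated KO cells and 57.6 ± 1.73 CPM per kb in unstimulated WT cells (SD, n = 3 each). Acly, which cleaves citrate to give cytosolic acetyl-CoA, averaged 43.9 CPM per kb in unstimulated KO cells and 33.9 CPM per kb in unstimulated WT cells. Elovl5 and Acly took the top places in the means of all 6 groups. Idi1, the isomerase of isopentenyl diphosphate, stood higher in the order with stimulation: its level per kb was 32.1 ± 5.61 CPM in KO cells with anti-CD3, the 3rd of the members, against 5.98 ± 1.24 CPM in unstimulated KO cells, where it was the 14th (SD, n = 3 each). Scd2, a stearoyl-CoA desaturase, stood lower with stimulation, at 3.67 ± 0.471 CPM per kb in KO cells with anti-CD3, the 23rd, against 8.65 ± 0.917 CPM per kb in unstimulated KO cells, the 9th. At the low end, Fads2 was at 0 in 14 of 17 libraries. Scd1, the stearoyl-CoA desaturase best known from liver, had 0 to 77 counts per library and at most 1.52 CPM. Its relative Scd2 was at 13.6 to 52.1 CPM over the libraries.

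The branches were summarised per library by the mean, over a branch's tested members, of log2 CPM less the gene's mean over the 6 group means. This score describes the members together and was given no test. The sterol score was 0.25, 0.25 and 0.47 in KO libraries with anti-CD3, against -0.091, -0.11 and -0.22 in unstimulated KO libraries. It was 0.041, -0.0027 and -0.0051 in WT libraries with anti-CD3, against -0.30, -0.25 and -0.35 in unstimulated WT libraries. With both antibodies it was 0.11, 0.13 and 0.12 in KO libraries, against -0.0014 and -0.019 in WT libraries. Every stimulated library therefore scored above every unstimulated library of its genotype in the sterol branch, and in each state every KO library scored above every WT library. Both orders held after the GC correction. The fatty acid score, computed without the sparse Scd1 (a choice made after seeing the data), was not higher in all stimulated libraries than in the unstimulated ones. It averaged 0.17 ± 0.094 in unstimulated KO cells, 0.088 ± 0.090 in KO cells with anti-CD3 and -0.099 ± 0.10 in KO cells with both antibodies (SD, n = 3 each). In WT cells it averaged -0.045 ± 0.052 without stimulation, -0.11 ± 0.022 with anti-CD3 (SD, n = 3 each) and -0.0081 ± 0.0094 with both antibodies (SD, n = 2). Without stimulation and with anti-CD3 every KO library lay above every WT library in this score, with and without GC correction. This was not so with both antibodies. With Scd1 included, the mean score over all 10 tested members was 0.28 ± 0.15 in unstimulated KO cells, 0.046 ± 0.080 in KO cells with anti-CD3 and -0.043 ± 0.21 in KO cells with both antibodies (SD, n = 3 each). In WT cells it was then -0.041 ± 0.20 without stimulation, -0.049 ± 0.18 with anti-CD3 (SD, n = 3 each) and -0.19 ± 0.0084 with both antibodies (SD, n = 2). With Scd1 the genotypes overlapped without stimulation and with anti-CD3, also after GC correction. Without stimulation replicate 3 of KO cells was at 0.11 and replicate 1 of WT cells at 0.19. With anti-CD3 the highest KO library was at 0.12 and replicate 1 of WT cells at 0.16.

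**Figure D1:**
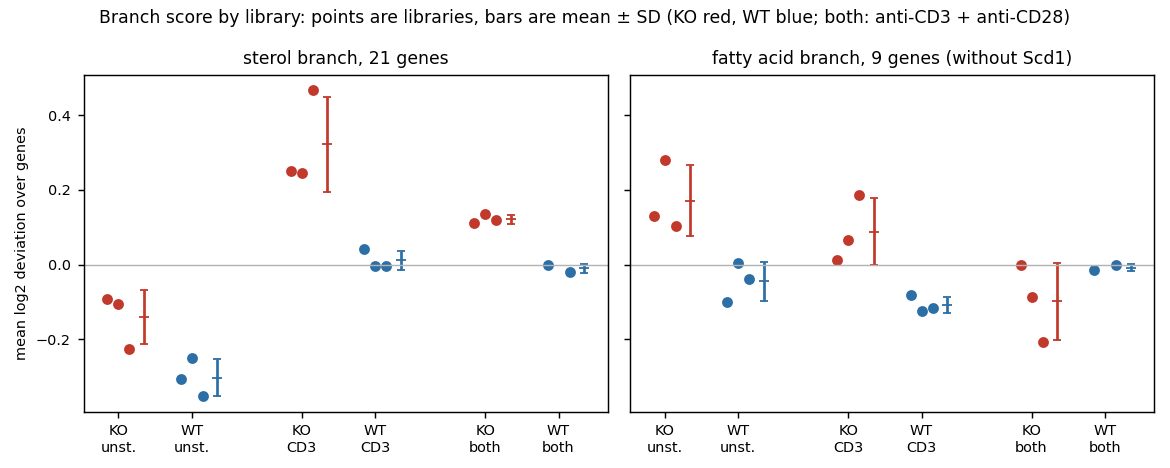
Branch scores per library (mean over members of log2 CPM less each gene's mean over groups, vertical axis) for the 6 groups, with the group mean and SD as lines. In the left panel the sterol score of KO libraries with anti-CD3 lies between 0.25 and 0.47, above all other groups; in the right panel the stimulated libraries do not all lie above the unstimulated ones in the fatty acid score without Scd1.

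With anti-CD3, more members of the sterol branch rose than fell, in KO and in WT cells, and Idi1, Cyp51, Sqle and Hmgcs1 rose most. Of its 21 tested members, 12 rose and 1 fell in KO cells, and 7 rose and 1 fell in WT cells. Over both branches 17 of 31 members were called in KO cells, against 36.9% of all genes tested (19.6% higher, 17.3% lower). In WT cells 12 of 31 were called, against 24.4% of all genes (11.3% higher, 13.1% lower). The median log2 change of the sterol members was 0.48 in KO cells and 0.32 in WT cells, while the median over all genes was 0.02 and 0.00. Calls are adjusted p under 0.05 by edgeR's quasi-likelihood test across all genes, here and throughout. Counts from another tool or with a library left out are given without the share of all genes called there.

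Idi1 had the largest response of any member. Its level was 97.9, 105 and 135 CPM in KO libraries with anti-CD3, against 23.2, 16.0 and 23.7 CPM in unstimulated KO libraries. In WT cells it was 63.3, 77.8 and 76.3 CPM with anti-CD3, against 29.1, 25.2 and 25.3 CPM without stimulation. The stimulated and unstimulated libraries did not overlap in either genotype, and the rise was 5.45-fold in KO cells (log2 2.45 ± 0.23 SE, adjusted p = 1.02e-06) and 2.73-fold in WT cells (log2 1.45 ± 0.22, adjusted p = 0.000207). Cyp51, the lanosterol demethylase, rose in both genotypes. It was at 78.5, 77.9 and 100.4 CPM in KO libraries with anti-CD3, against 26.8, 25.0 and 28.7 CPM in unstimulated KO libraries. In WT libraries it was at 72.1, 74.0 and 73.6 CPM with anti-CD3, against 28.7, 27.9 and 24.2 CPM without stimulation. The groups did not overlap, with a rise of 3.21-fold in KO cells (log2 1.68 ± 0.14, adjusted p = 1.13e-07) and 2.71-fold in WT cells (log2 1.44 ± 0.14, adjusted p = 9.61e-07).

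Sqle, the squalene epoxidase and a rate-controlling step, followed. Its level was 29.6, 29.1 and 37.9 CPM in KO libraries with anti-CD3, against 13.9, 11.8 and 13.5 CPM in unstimulated KO libraries. It was 22.8, 23.5 and 22.5 CPM in WT libraries with anti-CD3, against 12.0, 11.7 and 11.1 CPM in unstimulated WT libraries. All stimulated libraries lay above all unstimulated ones, and the log2 change was 1.32 ± 0.15 in KO cells (adjusted p = 3.43e-06) and 0.98 ± 0.15 in WT cells (adjusted p = 0.000133). Hmgcs1, which makes HMG-CoA at the entry of the mevalonate pathway and carries the element core shown above, was at 123, 123 and 144 CPM in KO libraries with anti-CD3, against 68.1, 61.3 and 65.1 CPM in unstimulated KO libraries. Its WT libraries were at 119, 128 and 127 CPM with anti-CD3, against 84.4, 74.7 and 71.5 CPM without stimulation. The KO and WT libraries with anti-CD3 overlapped in Hmgcs1, with log2 changes of 1.00 ± 0.12 in KO cells (adjusted p = 4.92e-06) and 0.70 ± 0.12 in WT cells (adjusted p = 0.000296).

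Other sterol members rose by smaller amounts. In KO and WT cells these were Msmo1, the methylsterol oxidase (log2 0.86 and 0.43), Fdps, the farnesyl diphosphate synthase (0.67 and 0.51), and Fdft1, the squalene synthase (0.50 and 0.52). The WT change of Msmo1 lost its call without replicate 3 of unstimulated WT cells (log2 0.35, adjusted p = 0.0793) and without replicate 2 of WT cells with anti-CD3 (log2 0.36, adjusted p = 0.0848). A further 5 members passed the test in KO cells while their WT change did not: Hsd17b7, a ketosterol reductase (log2 0.96 in KO, 0.37 in WT), Sc5d, a sterol desaturase (0.58 and 0.33), Lss, the lanosterol synthase (0.54 and 0.23), Stard4, a sterol carrier (0.48 and 0.12), and Insig1, which retains SREBP in the endoplasmic reticulum (0.46 and 0.08). The difference between the responses was not past the threshold for any of these 5 (adjusted p from 0.267 to 0.514). After GC correction Hsd17b7 (log2 0.39, adjusted p = 0.0242) and Sc5d (log2 0.34, adjusted p = 0.00315) were called in WT cells too. Dhcr7, the reductase of the last step, was the sterol member that fell. It was at 8.57, 9.12 and 7.19 CPM in KO libraries with anti-CD3, against 11.7, 11.9 and 11.1 CPM in unstimulated KO libraries. Its log2 change was -0.49 ± 0.15 in KO cells (adjusted p = 0.0184) and -0.61 ± 0.15 in WT cells (adjusted p = 0.00724), and the KO call was lost without replicate 2 of unstimulated KO cells (log2 -0.47, adjusted p = 0.0533) or replicate 3 of KO cells with anti-CD3 (log2 -0.39, adjusted p = 0.0949).

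The kinases Mvk and Pmvk and the decarboxylase Mvd, which act in a row between mevalonate and isopentenyl diphosphate, did not pass the test in either genotype, with log2 changes of -0.49 to -0.05 in KO cells and -0.52 to 0.34 in WT cells. Srebf2 itself changed by 0.07 ± 0.16 in KO cells and 0.32 ± 0.16 in WT cells on the log2 scale and was not called, but was called higher in both after GC correction (log2 0.31, adjusted p = 0.00103 in KO; 0.27, adjusted p = 0.00416 in WT). Acat2, the cytosolic thiolase, Nsdhl, which takes part in removing sterol methyl groups, the isomerase Ebp and the reductase Tm7sf2 were not called either. After correction for GC content, all 17 KO calls and all 12 WT calls of both branches remained, among 43.4% and 33.9% of all genes called. The correction also added Mvd as lower in WT cells (log2 -0.59, adjusted p = 0.032) and Nsdhl as lower in KO cells (log2 -0.35, adjusted p = 0.0209). Reads of some members could belong in part to overlapping genes. On the same strand, exons of Fdps overlap Gm43738 over 26.7% of their length and those of Tm7sf2 overlap Vps51 over 12.1%. On the opposite strand, exons of Fdft1 overlap Ctsb over 18.3%, and those of Hmgcs1 and Idi1 overlap antisense transcripts over 12.1% and 9.2%. For the opposite-strand overlaps the strand setting of the counting matters, and it is not given in the sources used here.

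**Figure D2:**
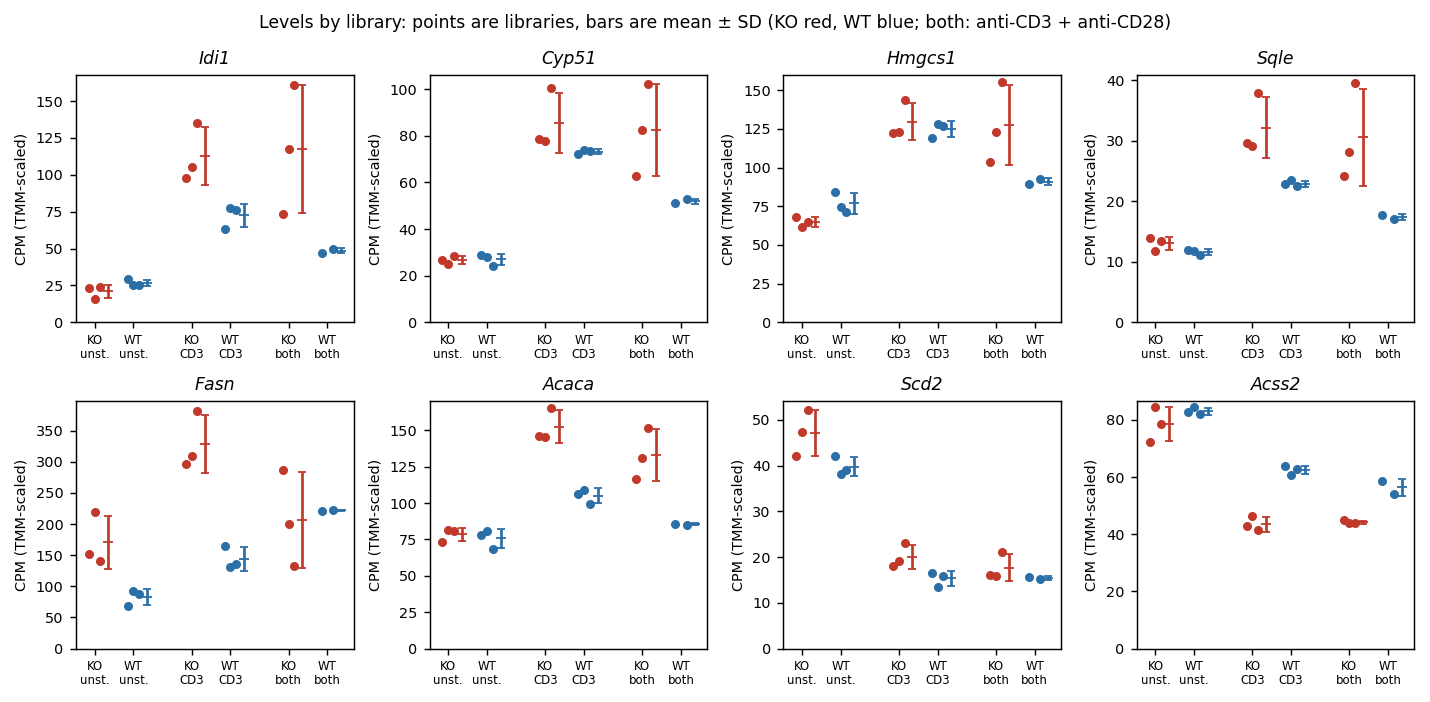
Level in CPM (vertical axis, from 0) of 8 members in each library, grouped by stimulation with KO left of WT, with the mean and SD of each group. Idi1, Cyp51, Hmgcs1 and Sqle are higher in all stimulated libraries than in the unstimulated libraries of the same genotype; Scd2 and Acss2 are lower.

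In the fatty acid branch, Fasn and Acaca rose with anti-CD3 in both genotypes, while Scd2 and Acss2 fell in both. These were the only calls among its 10 tested members, so 2 rose and 2 fell in each genotype. That is close to the share over all genes in KO cells (19.6% higher, 17.3% lower) and somewhat above it in WT cells (11.3% higher, 13.1% lower). The median log2 change over the 10 was -0.14 in KO cells and -0.02 in WT cells. Fasn, the fatty acid synthase, was at 296, 309 and 382 CPM in KO libraries with anti-CD3, against 152, 219 and 141 CPM in unstimulated KO libraries. It was at 165, 131 and 135 CPM in WT libraries with anti-CD3, against 67.6, 92.7 and 87.4 CPM in unstimulated WT libraries. The groups did not overlap, and the rise was 1.92-fold in KO cells (log2 0.94 ± 0.23, adjusted p = 0.00493) and 1.74-fold in WT cells (log2 0.80 ± 0.23, adjusted p = 0.0205). The WT call was lost without replicate 1 of unstimulated WT cells (log2 0.67, adjusted p = 0.0867) or replicate 1 of WT cells with anti-CD3 (log2 0.69, adjusted p = 0.0782).

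Acaca, the acetyl-CoA carboxylase that supplies malonyl-CoA to Fasn, rose more in KO than in WT cells by its point estimates. It was at 146, 146 and 165 CPM in KO libraries with anti-CD3, against 73.0, 81.8 and 80.5 CPM in unstimulated KO libraries. In WT libraries it was at 106, 109 and 99.7 CPM with anti-CD3, against 77.9, 80.5 and 68.6 CPM without stimulation. The log2 change was 0.96 ± 0.099 in KO cells (adjusted p = 1.09e-06) and 0.47 ± 0.099 in WT cells (adjusted p = 0.00183), and the difference between them, 0.48 ± 0.14, was not past the threshold (adjusted p = 0.176). Scd2 fell in both genotypes. It was at 18.1, 19.1 and 23.0 CPM in KO libraries with anti-CD3, against 42.1, 47.5 and 52.1 CPM in unstimulated KO libraries. It was at 16.6, 13.6 and 15.8 CPM in WT libraries with anti-CD3, against 42.1, 38.1 and 39.0 CPM in unstimulated WT libraries. The groups lay far apart, and Scd2 fell to 0.426 of its unstimulated level in KO cells (log2 -1.23 ± 0.13, adjusted p = 1.02e-06) and to 0.384 in WT cells (log2 -1.38 ± 0.13, adjusted p = 4.35e-07).

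Acss2, which makes acetyl-CoA from acetate, was the other fatty acid member that fell. It was at 42.8, 46.4 and 41.3 CPM in KO libraries with anti-CD3, against 72.4, 84.5 and 78.5 CPM in unstimulated KO libraries. In WT libraries it was at 63.7, 60.8 and 62.7 CPM with anti-CD3, against 82.8, 84.4 and 81.9 CPM without stimulation. The KO libraries thus ended below the WT libraries, with log2 changes of -0.85 ± 0.078 in KO cells (adjusted p = 2.73e-07) and -0.41 ± 0.077 in WT cells (adjusted p = 0.00074). Acly, the elongases Elovl5 and Elovl6, the desaturase Fads1, Srebf1 and the sparse Scd1 were not called in either genotype, although Srebf1 was at 51.0, 49.1 and 58.2 CPM in KO libraries with anti-CD3, against 74.3, 107 and 62.3 CPM in unstimulated KO libraries (log2 -0.63 ± 0.29, adjusted p = 0.112). After GC correction 3 of them were called in KO cells: Elovl5 (log2 -0.25, adjusted p = 0.00296) and Srebf1 (log2 -0.34, adjusted p = 0.0112) as lower and Fads1 (log2 0.41, adjusted p = 0.0126) as higher.

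**Figure D3:**
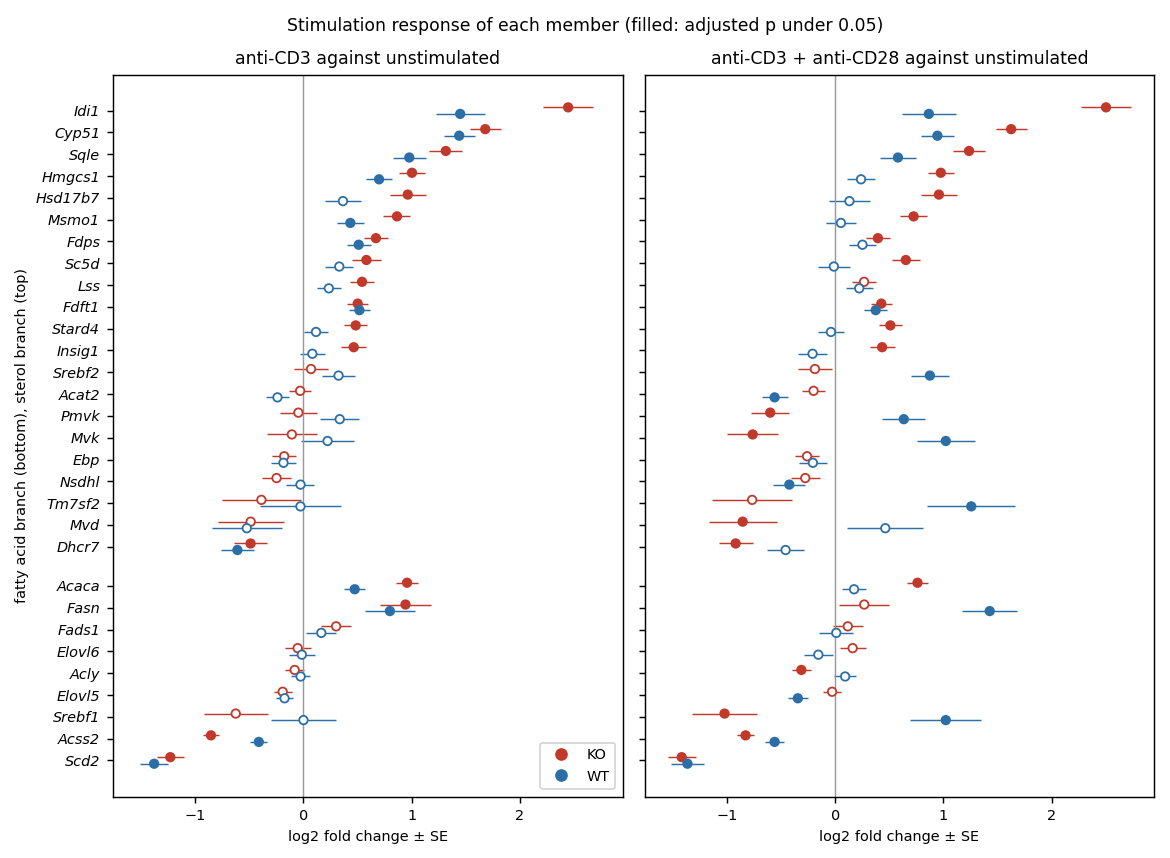
Log2 fold change with its SE (horizontal axis) of each tested member but Scd1 with anti-CD3 and with both antibodies, each against unstimulated cells of the same genotype, KO in red and WT in blue; filled points have adjusted p under 0.05. Idi1, Cyp51 and Sqle lie furthest to the right with log2 changes of 1.32 to 2.45 in KO cells with anti-CD3, and Scd2 and Acss2 lie to the left in both genotypes.

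With both antibodies, the sterol enzymes that rose in KO cells were largely those named above, and fewer of them rose in WT cells. In KO cells 20 of 31 members were called, 12 higher and 8 lower, against 45.4% of all genes (23% higher, 22.5% lower). In WT cells 15 of 31 were called, 10 higher and 5 lower, against 34.1% of all genes (17.8% higher, 16.3% lower). These comparisons use the same unstimulated libraries as those with anti-CD3. Idi1 was at 73.7, 118 and 161 CPM in KO libraries with both antibodies, and the unstimulated values above give a log2 change of 2.504 ± 0.23 (adjusted p = 8.8e-07). In WT libraries with both antibodies it was at 47.2 and 49.6 CPM, a log2 change of 0.87 ± 0.25 (adjusted p = 0.014). Idi1 in KO libraries ranged widely, but even the lowest was above both WT libraries.

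Cyp51 was at 62.7, 82.5 and 102 CPM in KO libraries with both antibodies and at 51.2 and 52.7 CPM in WT libraries with both antibodies. All were above the unstimulated libraries, with log2 changes of 1.63 ± 0.14 in KO cells (adjusted p = 1.87e-07) and 0.94 ± 0.16 in WT cells (adjusted p = 0.000269). Sqle rose by 1.24 in KO cells (adjusted p = 7.08e-06) and by 0.58 in WT cells (adjusted p = 0.0144) on the log2 scale. Hmgcs1 rose in KO cells (log2 0.98 ± 0.12, adjusted p = 6.78e-06), while its WT change was 0.24 ± 0.13 (adjusted p = 0.17). In KO cells Hsd17b7, Msmo1, Sc5d, Stard4, Insig1, Fdft1 and Fdps also rose, by 0.39 to 0.96, and Dhcr7 fell by 0.92 (adjusted p = 0.000188). Scd2 fell in KO cells (log2 -1.42 ± 0.13, adjusted p = 2.56e-07) and in WT cells (log2 -1.37 ± 0.15, adjusted p = 4.09e-06). Acss2 fell in KO cells (log2 -0.83 ± 0.078, adjusted p = 4.23e-07) and in WT cells (log2 -0.56 ± 0.088, adjusted p = 0.000175). Acaca rose in KO cells (log2 0.76 ± 0.099, adjusted p = 1.36e-05) and had a WT change of 0.17 ± 0.11 (adjusted p = 0.235). After GC correction Acaca was called higher in WT cells too (log2 0.37, adjusted p = 0.0018).

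The GC-rich members stood apart between the genotypes with both antibodies. Mvd, Mvk, Pmvk and Srebf1 fell in KO cells, with log2 changes of -0.86, -0.76, -0.60 and -1.02. In WT cells Mvk, Pmvk, Srebf2, Tm7sf2, Srebf1 and Fasn rose, with log2 changes of 1.02, 0.63, 0.88, 1.26, 1.02 and 1.43. After GC correction, under which 43.5% of all genes were called in KO cells and 32% in WT cells, the KO calls of Mvd, Mvk and Pmvk were lost (log2 -0.27 to -0.19, adjusted p from 0.239 to 0.411), as were the WT calls of Mvk, Pmvk and Srebf1 (log2 0.29 to 0.37, adjusted p from 0.062 to 0.167), of Nsdhl (log2 -0.18, adjusted p = 0.327) and of Elovl5 (log2 -0.14, adjusted p = 0.156). Fasn then rose in KO cells (log2 0.80, adjusted p = 1.62e-07) and in WT cells (log2 0.81, adjusted p = 9.68e-07), and Hmgcs1 rose in WT cells (log2 0.51, adjusted p = 5.7e-05). Msmo1 (log2 0.31, adjusted p = 0.0154) and Sc5d (log2 0.25, adjusted p = 0.0487) were then also called higher in WT cells. Dhcr7 was called lower there (log2 -0.52, adjusted p = 0.0162). For KO cells the correction also added Srebf2 (log2 0.29), Lss (0.29) and Fads1 (0.33) as higher. Nsdhl (log2 -0.51), Ebp (-0.30) and Elovl5 (-0.20) were added as lower in KO cells. In the counts as deposited, Nsdhl, Acat2 and Elovl5 fell in WT cells (log2 -0.42, -0.56 and -0.35), and Acly fell in KO cells (log2 -0.31). The KO calls of Mvd, Mvk, Pmvk, Srebf1 and Acly were lost without replicate 2 of unstimulated KO cells (adjusted p from 0.0614 to 0.161), and those of Mvd, Mvk and Pmvk without replicate 3 of KO cells with both antibodies (adjusted p from 0.0604 to 0.144). The WT group has only 2 libraries, and the 15 WT calls became 7 without its replicate 2 and 8 without its replicate 3; the calls of Idi1 and Sqle were lost in both cases (adjusted p from 0.0602 to 0.0919), and those of Cyp51, Fasn, Scd2 and Acss2 were kept.

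Adding anti-CD28 to anti-CD3 changed no member past the threshold in either genotype by edgeR's quasi-likelihood test, where 0% of all genes were called. At an unadjusted p under 0.05 there were 7 members and 1460 genes in all in KO cells, and 16 members and 3506 genes in WT cells. DESeq2 called 0 members in KO cells and 2 in WT cells, and limma with quality weights called 14 in KO cells and 19 in WT cells. The share of all genes that these tools called is not given here. Without it, the counts from these tools do not show whether the members differ from other genes. At the unadjusted threshold the share of the 31 members was above that of all 16246 genes in both genotypes, which was not tested. In WT cells Hmgcs1 was at 89.2 and 92.4 CPM with both antibodies, against 119, 128 and 127 CPM with anti-CD3 alone. These libraries did not overlap, with a log2 difference of -0.46 ± 0.13 (adjusted p = 0.141). Idi1 in WT cells was lower by point estimate with both antibodies too (log2 -0.58 ± 0.25, adjusted p = 0.203), while in KO cells its difference was 0.06 ± 0.22. Without replicate 1 of KO cells with both antibodies, edgeR called 4 members in KO cells and 6 in WT cells, and without replicate 3 of that group it called 5 in WT cells.

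Between the genotypes, the comparison under anti-CD3 gave the clearest result for single members. KO cells had more RNA of Fasn, Acaca and Acly, at the start of fatty acid synthesis, and of Sqle, Fdps, Lss, Mvd and Mvk in the sterol branch, and less of Acss2. In all, 9 of 31 members were higher and 1 was lower in KO cells, against 15.3% of all genes (10.5% higher, 4.8% lower), with a median log2 difference of 0.23 over the sterol members, 0.11 over the fatty acid members and 0.04 over all genes. Fasn, with the values given above, was separated between the genotypes without overlap, the lowest KO library at 296 CPM and the highest WT library at 165 CPM (log2 1.20 ± 0.23, adjusted p = 0.00338). Acaca was likewise at 146 CPM or more in KO libraries and at most 109 CPM in WT libraries (log2 0.54 ± 0.099, adjusted p = 0.00175). Acss2 was at most 46.4 CPM in KO libraries and at least 60.8 CPM in WT libraries (log2 -0.52 ± 0.078, adjusted p = 0.000389). These 3 differences kept their call under all 27 alternatives tried.

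The sterol differences under anti-CD3 rested more on single libraries. Lss was at 32.6, 32.6 and 37.8 CPM in KO libraries, against 24.6, 26.3 and 23.2 CPM in WT libraries (log2 0.48 ± 0.11, adjusted p = 0.00775). Fdps was at 37.4, 37.8 and 44.7 CPM in KO libraries, against 30.6, 27.5 and 29.7 CPM in WT libraries (log2 0.45 ± 0.11, adjusted p = 0.0108). Mvk was at 5.57, 4.67 and 6.47 CPM in KO libraries, against 3.41, 3.00 and 2.59 CPM in WT libraries (log2 0.91 ± 0.24, adjusted p = 0.0159). In all 3 the KO libraries were above the WT libraries, and replicate 3 of the KO group was the highest. Mvd (log2 1.07 ± 0.32, adjusted p = 0.0336), Sqle (log2 0.49 ± 0.15, adjusted p = 0.0306), Acly (log2 0.32 ± 0.09, adjusted p = 0.0235) and Scd2 (log2 0.40 ± 0.13, adjusted p = 0.045) were also higher. Without replicate 3 of KO cells with anti-CD3, 3 members were called, and Sqle (adjusted p = 0.209), Fdps (0.0883), Lss (0.0642), Mvd (0.177), Mvk (0.106), Acly (0.113) and Scd2 (0.26) were not. Without replicate 2 of WT cells with anti-CD3 there were 4 calls, and without replicate 3 of that group 5. The call of Scd2 was lost in 13 of the 17 fits that leave out a library (adjusted p from 0.0517 to 0.26).

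After GC correction all 10 calls under anti-CD3 were kept, with smaller values for Fasn (log2 0.89), Mvd (0.72) and Mvk (0.58), and 5 sterol members were added, where 21.8% of all genes were called. The added members were Idi1 (log2 0.83, adjusted p = 0.000254), Hsd17b7 (0.60, adjusted p = 0.00169), Cyp51 (0.33, adjusted p = 0.0144), Msmo1 (0.27, adjusted p = 0.0222) and Hmgcs1 (0.22, adjusted p = 0.0379). Without the correction Idi1 differed by 0.64 ± 0.22 (adjusted p = 0.0601) and Hsd17b7 by 0.49 ± 0.16 (adjusted p = 0.0515). The other sterol members, among them Insig1, Srebf2 and Stard4, were called in neither fit.

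**Figure D4:**
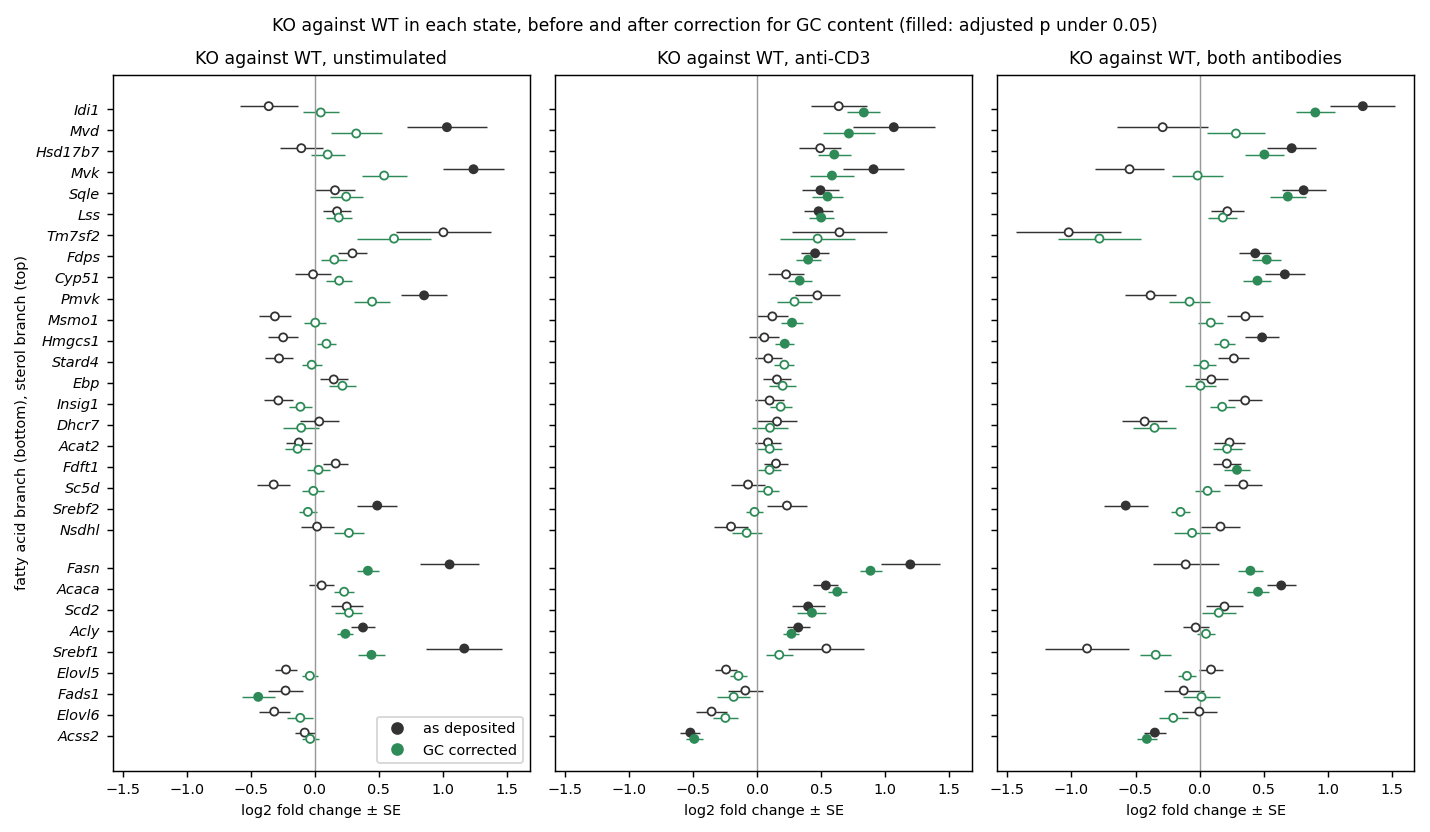
Log2 difference of KO against WT cells (horizontal axis) of each tested member but Scd1 in the 3 states, with its SE, from counts as deposited in black and after GC correction in green; filled points have adjusted p under 0.05. With anti-CD3 Fasn is at 1.20 and Acss2 at -0.52 before correction, and the GC-rich Fasn, Mvd and Mvk move to 0.89, 0.72 and 0.58 after it; the GC-rich members also move without stimulation and with both antibodies.

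With both antibodies, 7 of 31 members were higher and 2 were lower in KO than in WT cells, against 16.1% of all genes (9.84% higher, 6.3% lower). Idi1, Cyp51, Hsd17b7, Sqle, Hmgcs1 and Fdps of the sterol branch and Acaca of the fatty acid branch were higher, and Srebf2 and Acss2 were lower. Idi1, with 73.7, 118 and 161 CPM in KO libraries and 47.2 and 49.6 CPM in WT libraries, differed by 1.28 ± 0.25 on the log2 scale (adjusted p = 0.00704). Sqle was at 24.1, 28.1 and 39.6 CPM in KO libraries, against 17.8 and 17.04 CPM in WT libraries (log2 0.81 ± 0.17, adjusted p = 0.00736). Acaca was at 116, 131 and 152 CPM in KO libraries, against 85.9 and 84.9 CPM in WT libraries (log2 0.64 ± 0.11, adjusted p = 0.00364). The KO libraries lay above the WT libraries in these 3, and Acss2 lay below, at 44.9, 43.9 and 44.0 CPM in KO libraries, against 58.5 and 54.2 CPM in WT libraries (log2 -0.35 ± 0.087, adjusted p = 0.0166). Fasn did not differ past the threshold, with 287, 199.5 and 132 CPM in KO libraries against 221 and 223 CPM in WT libraries (log2 -0.11 ± 0.26, adjusted p = 0.807), and was higher in KO cells after GC correction (log2 0.40, adjusted p = 0.00748).

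This comparison has 2 WT libraries, and in a fit of these groups alone no member was called by edgeR. Without either WT library, the log2 difference was 1.22 to 1.31 for Idi1, 0.786 to 0.825 for Sqle and 0.629 to 0.632 for Acaca. The WT group then held 1 library and gave no spread of its own. With all libraries 16 members had an unadjusted p under 0.05, and the count over all genes is not given beside it. Among KO libraries with both antibodies, 17 members were called without replicate 1, 4 without replicate 2 and 5 without replicate 3. The share of all genes called in these fits is not given here. GC correction kept 7 of the 9 calls, where 17.1% of all genes were called, and lost those of Hmgcs1 (log2 0.20, adjusted p = 0.111) and Srebf2 (log2 -0.15, adjusted p = 0.205).

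Without stimulation, 7 of 31 members were higher in KO cells and none lower, against 25.4% of all genes (15.3% higher, 10.1% lower). They were Mvk, Mvd, Pmvk and Srebf2 of the sterol branch and Srebf1, Fasn and Acly of the fatty acid branch, and all but Acly belong to the 7 GC-rich members. Srebf1 was at 74.3, 107 and 62.3 CPM in KO libraries, against 30.3, 38.8 and 40.001 CPM in WT libraries (log2 1.17 ± 0.30, adjusted p = 0.0155). Acly was at 229, 259 and 208 CPM in KO libraries, against 173, 189 and 175 CPM in WT libraries (log2 0.38 ± 0.09, adjusted p = 0.0111). Fasn differed by 1.05 ± 0.23 (adjusted p = 0.00973), Mvk by 1.24 ± 0.24 (adjusted p = 0.00667), Pmvk by 0.85 ± 0.18 (adjusted p = 0.00728), Mvd by 1.03 ± 0.31 (adjusted p = 0.0258) and Srebf2 by 0.49 ± 0.16 (adjusted p = 0.032). The enzymes that rose most with stimulation did not differ past the threshold here: Idi1 by -0.36 ± 0.23, Cyp51 by -0.01 ± 0.14, Hmgcs1 by -0.25 ± 0.12 and Sqle by 0.16 ± 0.15.

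GC correction, under which 6.21% of all genes were called, kept Srebf1 (log2 0.44, adjusted p = 0.0181), Fasn (log2 0.41, adjusted p = 0.00875) and Acly (log2 0.24, adjusted p = 0.0271), at smaller sizes, and added Fads1 as lower in KO cells (log2 -0.44, adjusted p = 0.0437). Mvk (log2 0.54, adjusted p = 0.0681), Pmvk (0.45, adjusted p = 0.0593), Mvd (0.32, adjusted p = 0.359) and Srebf2 (-0.055, adjusted p = 0.701) were then not called. Without replicate 2 of unstimulated KO cells no member was called, against 7 with it, and without replicate 1 of unstimulated WT cells 2 were called. There were 12 calls without replicate 3 of unstimulated KO cells, and 15 and 16 without replicate 1 and replicate 3 of KO cells with both antibodies, which enter only through the shared spread. These counts, too, are given without the share of all genes called in the same fits.

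Divided by GC content, the members moved apart between the genotypes. The 7 members over 55% GC had a median log2 difference of 1.03 without stimulation, against -0.08 for the 23 other tested members without Scd1. With anti-CD3 the medians were 0.64 and 0.15. With both antibodies they were -0.55 and 0.23. The median of the GC-rich members was thus above 0 without stimulation and below 0 with both antibodies, and that of the other members was the reverse. With anti-CD3 both medians were above 0. These medians moved with the per-library GC shift given above, and the corrected fits show how much of each single difference remained.

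**Figure D5:**
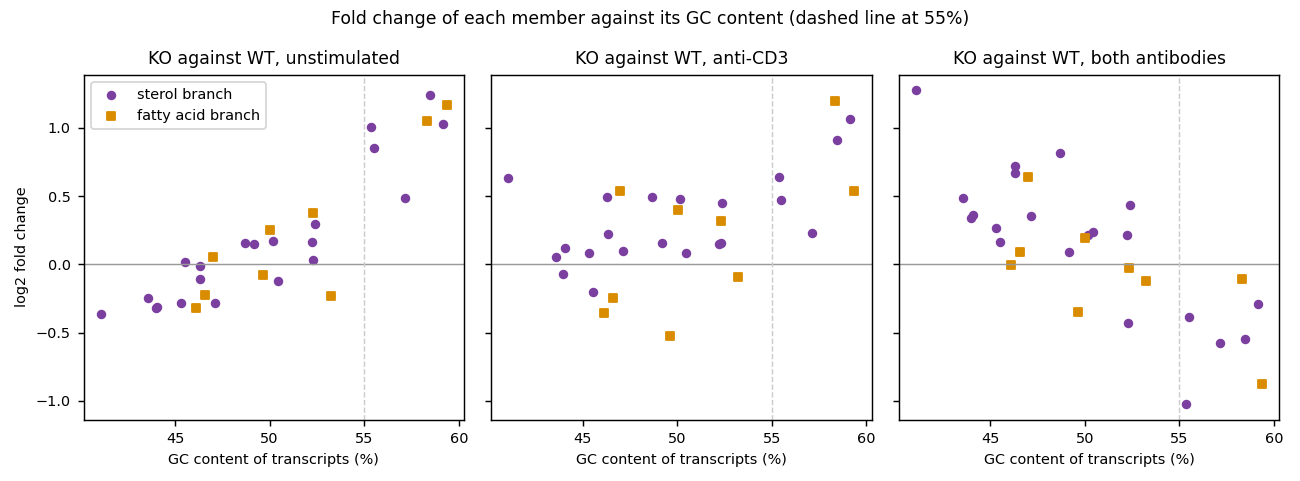
Log2 difference of KO against WT cells (vertical axis) of each tested member but Scd1 by its GC content in percent (horizontal axis), in the 3 states; the dashed line marks 55%. The members to the right of it lie above 0 without stimulation and below 0 with both antibodies.

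The difference between the genotypes' responses was tested directly. For anti-CD3 no member was called by edgeR, among 0.0554% of all genes, with 7 members and 2399 genes in all at an unadjusted p under 0.05; DESeq2 called 1 member, Acss2, and limma with quality weights called 2. The response in KO cells less that in WT cells was 1.00 ± 0.31 for Idi1 (adjusted p = 0.202), 0.48 ± 0.14 for Acaca (adjusted p = 0.176) and -0.44 ± 0.11 for Acss2 (adjusted p = 0.14). After GC correction, under which 2.64% of all genes were called, Idi1 (log2 0.79, adjusted p = 0.0387), Fasn (0.47, adjusted p = 0.04), Acaca (0.40, adjusted p = 0.0474) and Acss2 (-0.45, adjusted p = 0.0157) passed the threshold. For both antibodies 18 members were called, 10 with a larger and 8 with a smaller response in KO cells, against 37.5% of all genes (18.3% larger, 19.2% smaller), and without replicate 2 of WT cells with both antibodies 9 were called. Of the 18, 3 kept their call after GC correction, under which 14% of all genes were called: Idi1 (log2 0.86, adjusted p = 0.0135), Tm7sf2 (-1.40, adjusted p = 0.0494) and Srebf1 (-0.78, adjusted p = 0.00483). Acss2 was then also called (log2 -0.37, adjusted p = 0.0185). The effect of adding anti-CD28 differed between the genotypes for no member by edgeR, where 0.00616% of all genes were called, with 13 members and 4641 genes in all at an unadjusted p under 0.05. For that difference DESeq2 called 8 members and limma with quality weights 22, and edgeR called 15 without replicate 1 of KO cells with both antibodies and 3 without replicate 2 of unstimulated KO cells. The share of all genes called by the other tools, or with a library left out, is not given in this paragraph. Without that share, those counts do not show whether the members differ from other genes.

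Genes of neighbouring pathways were tested in the same fits and are given without GC correction. The GC shift separated KO from WT libraries in each state, and its part in these genes' genotype differences is not given here. Of 11 tested genes of sterol transport, esterification and efflux, 6 fell and none rose with anti-CD3 in KO cells, and 3 fell and none rose in WT cells, against 17.3% of all genes lower in KO cells and 13.1% in WT cells. With both antibodies 6 fell and none rose in KO cells, and 5 fell and 3 rose in WT cells, against 22.5% and 16.3% of all genes lower. Abca1, the exporter of cholesterol that is induced by oxysterols through LXR, averaged 19.1 ± 3.43 CPM in KO cells with anti-CD3 and 55.8 ± 6.55 CPM in unstimulated KO cells (SD, n = 3 each). In WT cells it averaged 32.2 ± 3.56 CPM with anti-CD3 and 73.9 ± 8.27 CPM without stimulation (SD, n = 3 each). Abca1 fell in both genotypes (log2 -1.56 ± 0.14, adjusted p = 2.16e-07 in KO; -1.19 ± 0.14, adjusted p = 4.93e-06 in WT) and was lower in KO than in WT cells with anti-CD3 (log2 -0.77 ± 0.14, adjusted p = 0.00158). Mylip, the LXR-induced ligase that degrades the receptor for low-density lipoprotein, fell by 0.88 in KO cells and 0.43 in WT cells on the log2 scale. Lipa, the lysosomal acid lipase, fell by 0.67 in KO cells and 0.48 in WT cells. Both were also lower in KO than in WT cells with anti-CD3 (log2 -0.41, adjusted p = 0.00553 for Mylip; -0.46, adjusted p = 0.00124 for Lipa), while the lipoprotein receptor Scarb1 was higher in KO cells (log2 0.88 ± 0.19, adjusted p = 0.00527).

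Of 10 tested genes of fatty acid oxidation, 5 fell and none rose with anti-CD3 in KO cells, and 4 fell and none rose in WT cells, against the same 17.3% and 13.1% of all genes lower. Cpt1a, which admits fatty acids to mitochondria, averaged 28.5 ± 2.97 CPM in KO cells with anti-CD3 and 73.1 ± 2.495 CPM in unstimulated KO cells (SD, n = 3 each). Its log2 change was -1.36 ± 0.13 in KO cells (adjusted p = 2.81e-07) and -1.41 ± 0.12 in WT cells (adjusted p = 2.24e-07).

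Among 12 further enzymes of sterol and isoprenoid synthesis, 3 rose and 2 fell with anti-CD3 in KO cells, and 1 rose and 1 fell in WT cells, near or under the 36.9% and 24.4% of all genes called in these comparisons. Acat1, the mitochondrial thiolase, fell in KO cells (log2 -0.51) and in WT cells (log2 -0.70). Of 8 genes that process or control SREBP, such as Scap, none rose or fell in KO cells and 1, the ligase gene Rnf145, rose in WT cells (log2 0.29 ± 0.073, adjusted p = 0.00797), under the shares over all genes. Among 18 tested genes of other fatty acid and glycerolipid synthesis, 4 rose and 3 fell in KO cells, and 1 rose and 2 fell in WT cells, which is again near or under those shares. Elovl1, an elongase of very long chains, rose (log2 0.76 in KO, 0.53 in WT), while Lpin1, a phosphatidate phosphatase (log2 -1.07 in KO, -0.71 in WT), and Acacb, the carboxylase at the mitochondrial surface (log2 -2.92 in KO, -1.56 in WT), fell. Gpam, which starts glycerolipid synthesis, was higher in KO than in WT cells with anti-CD3 (log2 0.48 ± 0.11, adjusted p = 0.0097).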

How the data were processed

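Libraries were made from purified CD8+ cells with a stranded total RNA kit after removal of ribosomal RNA and sequenced in pairs, per the labels' protocols. The authors deposited counts per gene for each library; STAR 2.5.2, RSEM 1.3.0 and build GRCm38 (mm10) are named in the submitters' processing notes, with annotation release, strand setting and rounding not given in the sources used here. GENCODE M21, from which symbols, GC content and exon lengths were taken, matched 53565 of 53679 identifiers. Genes were filtered by edgeR's filterByExpr, scaled by TMM and tested with edgeR 4.0.16 (quasi-likelihood, robust) in R 4.3.3, in 1 fit of all 17 libraries with 1 coefficient per group, for 12 comparisons, each with Benjamini-Hochberg adjustment over 16246 genes (threshold 0.05; common biological coefficient of variation 0.153). SE is the log2 change divided by the root of its F. Log CPM used a prior count of 2. The GC correction took a loess curve (span 0.3) of each library's deviation on GC content as an offset. Alternatives used other scaling and filters, DESeq2 1.42.0, limma 3.58.1, fits of single pairs of groups, a block for the replicate number, and each library left out. The scripts were tested on simulated data. All 32 members are named, and of the 5 further lists up to 3 genes per direction and comparison by smallest adjusted p, apart from genes not reported here. The members, the lists and the alternatives were chosen with earlier results of these data known. The limit from a count of 0 covers counting error only.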

Additional observations from a re-analysis of the deposited data

Results flagged for a closer look

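The response to both antibodies differed between KO and WT cells for 18 members, by the test of the difference itself (edgeR's quasi-likelihood test, adjusted p from 0.00375 to 0.0368, against 37.5% of all genes). The difference is the log2 response in KO cells less that in WT cells. It was above 0 for Idi1 (1.64), Hsd17b7 (0.83), Hmgcs1 (0.74), Cyp51 (0.68), Msmo1 (0.67), Sc5d (0.67), Sqle (0.66), Insig1 (0.64), Acaca (0.59) and Stard4 (0.55). It was below 0 for Srebf1 (-2.04), Tm7sf2 (-2.03), Mvk (-1.78), Mvd (-1.32), Pmvk (-1.23), Fasn (-1.16), Srebf2 (-1.06) and Acly (-0.40). The 7 members over 55% GC content are all in the second set, and the per-library GC shift moved with them. After GC correction the calls of Idi1, Tm7sf2 and Srebf1 remained. The difference then came to -0.02 for Fasn, -0.04 for Mvd and 0.11 for Hmgcs1, none of them past the threshold.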

How the results depend on the processing

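Of the members' single results, 5746 kept their direction and their side of the threshold over the alternatives, 401 passed the threshold only under an alternative, 258 lost it and 10 reversed; for those below and the counts given here the cause was not tested. Reversed were KO against WT without stimulation for Srebf2 (log2 -0.055 with GC correction and -0.055 with block and GC correction) and Scd1 (3.17 with limma), KO against WT with both antibodies for Fasn (0.40 and 0.41), the both-antibody response of KO for Srebf2 (0.29 and 0.29) and of WT for Sc5d (0.25, GC correction) and Stard4 (0.24, block and GC correction), and the genotype difference in that response for Fasn (0.0023, block and GC correction). Counts of members called moved by over 1.5 times as follows. KO against WT without stimulation gave 11 with DESeq2, 12 with limma, 4 with GC correction and 4 with block and GC correction. With anti-CD3 it gave 18 with limma, 18 with only the groups compared, 16 with block and GC correction and 16 when the 2 libraries whose GC shift was most extreme were left out; with both antibodies it gave 21, 0 for the groups compared and 5 without those 2 libraries. The both-antibody response of KO gave 12 for the groups compared. Adding anti-CD28 gave 14 in KO cells with limma and, in WT cells, 2 with DESeq2, 19 with limma, 18 for the groups compared and 13 without the 2 libraries. The anti-CD3 genotype difference gave 1 with DESeq2, 2 with limma, 2 for the groups compared, 4 with GC correction and 4 with block and GC correction; that for both antibodies gave 4, 3 and, without the 2 libraries, 9; that for adding anti-CD28 gave 8 with DESeq2, 22 with limma, 1 with no filter and 4 without the 2 libraries. Leaving out each library gave 0 to 16, 3 to 15 and 0 to 17 for KO against WT without stimulation, with anti-CD3 and with both antibodies, 16 to 18 and 11 to 14 for the anti-CD3 response of KO and WT, 16 to 23 and 7 to 16 for the both-antibody response, 0 to 4 and 0 to 6 for adding anti-CD28, and 0 to 3, 9 to 20 and 0 to 15 for the 3 genotype differences. A lone WT library with both antibodies was then assumed to vary like the other groups. The counts of members in this section are given without the share of all genes called in each setting. Whether replicate numbers pair the libraries was not settled: 3 of 40 same-numbered pairs had a correlation of their deviations over 0.1 (range -0.18 to 0.29), and 36 of 80 comparisons were best with their own number. No chance level was worked out for these values. The deviations also carry the per-library GC shift, so low correlations cannot exclude pairing. With the replicate block alone 8, 12 and 10 members were called for KO against WT in the 3 states. Depth limits Scd1 and Fads2, whose counts were near 0.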
